A study of Mus musculus with 10 samples.

Results

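The small leucine-rich proteoglycans described here are 8 genes: Dcn, Bgn and Aspn of class I, Lum, Fmod, Prelp and Omd of class II, and Ogn of class III. They were chosen by name, each was read by 1 probe set of the array, and they are 8 of the 19505 named genes measured. All 8 had a mean level above the filter on low values. Signals came from whole back skin of C57BL/6J mice that were 9 weeks old at the start, on 10 arrays of total RNA. A silicone expander lay beneath the skin in both arms, 4 expanded and 4 non-expanded samples. It was injected with PBS in the expanded arm and received no injection in the non-expanded arm. Both arms were sampled once at day 0, 7, 14 and 21 counted from full injection. The other two arrays held skin of mice without surgery, 1 in telogen, when hair follicles rest, and 1 in anagen, when they grow hair. The labels do not say whether an array held 1 mouse or a pool, so the p-values measure only the spread between arrays. In comparisons with skin without surgery, the spread within an arm includes any change with day. Between the arms, day was a block, so a change with day shared by both arms was taken out.

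Small leucine-rich proteoglycans are secreted proteins whose leucine-rich repeats form a curved solenoid that binds collagen fibrils and sets their diameter and spacing. Most members carry chondroitin, dermatan or keratan sulfate chains, and some members also bind TGF-beta and other growth factors or cell receptors. In skin they are made mainly by fibroblasts of the dermis and fascia, and loss of decorin leaves fragile skin with irregular collagen fibrils.

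The 8 genes fell into 3 patterns. Bgn and Prelp were higher on all 8 expander arrays than on either array without surgery. Of all genes tested, 11.5% were higher without overlap in non-expanded skin and 14% in expanded skin. The share over both arms together was not counted. Fmod was higher in expanded than in non-expanded skin on each of the 4 days, as were 9.18% of all genes tested. For each of Dcn, Lum and Aspn, the arm means lay close to that gene's telogen value, high on the scale, and the anagen array read lower. Ogn and Omd were both lower in expanded than in non-expanded skin on day 14 and both higher on day 21. Among the members' tests, 1 result passed an adjusted p of 0.05 (limma, Benjamini-Hochberg over all 13653 genes tested), the rise of Bgn in expanded skin relative to mice that had no surgery. All levels below are log2 signals as deposited, so a difference of 1 is 2-fold, and levels are compared between arrays for the same gene only.

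Array medians lay between 6.27 and 6.45, and the 23 background probe sets had a median of 5.46. Several members read near the top of the scale: all 10 arrays of Dcn, 9 of Lum, 9 of Ogn, 7 of Aspn and 5 of Bgn lay above 16, the highest log2 value that a 16-bit image can hold. Dcn lay 0.31 to 1.89 below the highest value of the same array. How the deposited values came to exceed that limit is not given in the sources used here. With values above 16 set to 16, Dcn, Lum and Ogn had a difference of 0 between the arms on every day, so their differences between the arms lie wholly above that limit. A difference compressed at the top of the scale would not be seen in these genes. Hair shaft and root sheath genes averaged 16.87 in anagen and 6.75 in telogen, and 12.72 on the expanded array of day 7 and 8.26 on the non-expanded array of day 14.

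Of the 8 genes, 7 lie in 3 clusters of the mouse genome (GRCm38.p6, the RefSeq table of the mm10 build that the submitters' processing notes name). On chromosome 10, Dcn (97479500 to 97518163) is followed by Lum (97565501 to 97572703), and the family members Kera and Epyc come next. On chromosome 13, Ecm2, a related gene, is followed by Aspn (49544443 to 49567565), Omd (49582462 to 49592612) and Ogn (49608015 to 49624501), with gaps of 14.9 kb between Aspn and Omd and 15.4 kb between Omd and Ogn. On chromosome 1, Prelp (133910304 to 133930102) and Fmod (134037254 to 134048280) lie 107 kb apart. No other protein-coding gene lies wholly inside these gaps, and genes that overlap or span a gap were not counted. Bgn (73483601 to 73495936) stands alone on chromosome X.

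Promoter sequences were matched in RefSeq for 6 of the 8 members. The 250 bases upstream of the start are printed for Bgn and Fmod, which had the largest differences between the arms, and for the neighbours Aspn and Omd, which had the largest differences between anagen and telogen. The windows are chrX:73483351-73483600, chr1:134037004-134037253, chr13:49544193-49544442 and chr13:49582212-49582461, all on the plus strand of GRCm38.p6, written 5′ to 3′. Capitals mark matches on either strand to 5 motifs: the TATA box TATAAA, the AP-1 site TGANTCA, the TEAD site GGAATG, the GC box GGGCGG and the CCAAT box CCAAT.
Bgn: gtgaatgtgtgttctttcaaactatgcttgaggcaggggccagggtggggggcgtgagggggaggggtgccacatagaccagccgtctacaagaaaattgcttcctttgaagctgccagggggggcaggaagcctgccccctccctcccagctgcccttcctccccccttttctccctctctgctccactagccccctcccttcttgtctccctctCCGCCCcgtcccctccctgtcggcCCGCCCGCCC
Fmod: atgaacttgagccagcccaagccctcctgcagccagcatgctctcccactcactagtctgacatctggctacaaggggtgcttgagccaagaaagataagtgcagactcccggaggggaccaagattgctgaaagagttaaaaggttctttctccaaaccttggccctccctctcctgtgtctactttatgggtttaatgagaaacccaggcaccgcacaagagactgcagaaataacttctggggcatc
Aspn: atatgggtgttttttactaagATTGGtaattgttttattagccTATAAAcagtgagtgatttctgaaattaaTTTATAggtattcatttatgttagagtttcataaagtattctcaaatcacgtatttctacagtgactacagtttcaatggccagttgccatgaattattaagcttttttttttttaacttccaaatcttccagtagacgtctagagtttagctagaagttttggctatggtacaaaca
Omd: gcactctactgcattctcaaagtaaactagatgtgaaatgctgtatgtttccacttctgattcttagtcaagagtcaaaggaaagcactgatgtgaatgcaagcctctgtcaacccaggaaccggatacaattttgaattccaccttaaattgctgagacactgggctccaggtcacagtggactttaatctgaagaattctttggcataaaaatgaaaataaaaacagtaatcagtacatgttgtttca
The Bgn window held 3 GC box matches, of which a pair overlap by 2 bases next to the start, and 64.4% of its bases were G or C. The Aspn window held 2 TATA box matches and 1 CCAAT box match, with 30% G or C, and the Omd window held none of the 5 motifs, with 38.4% G or C. No match to the 5 motifs was found in the Fmod window either. Among 32851 promoter windows of the same length, 32.7% held a GC box, 12.4% a TATA box, 33.8% a CCAAT box, 12.6% a TEAD site and 6.75% an AP-1 site. Of the 6 member windows, 1 held a GC box, 2 a TATA box, 2 a CCAAT box, 1 a TEAD site and none an AP-1 site. A match describes the letters only, and the median window of all promoters was 52.4% G or C.

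Biglycan, encoded by Bgn, is a class I member with chondroitin or dermatan sulfate chains that also binds Toll-like receptors once released from the matrix. Expanded skin gave 17.38, 16.60, 17.16 and 16.22 from day 0 to day 21. In non-expanded skin it read 15.30, 16.95, 15.07 and 15.79, and without surgery 13.82 in telogen and 13.96 in anagen. Every expander array thus lay above both arrays without surgery, while the arms overlapped because the non-expanded array of day 7 was high. The 4 expanded arrays averaged 16.84 ± 0.53 (SD) and the 4 non-expanded arrays 15.78 ± 0.84. The difference of 1.07 ± 0.46 (SE) between the arms did not pass (limma adjusted p = 0.58). Against skin without surgery, expanded skin was 2.95 ± 0.52 higher (limma adjusted p = 0.0444, 95% confidence interval 1.81 to 4.10), a rise of 7.73-fold, with 4 of 4 arrays above both. Non-expanded skin was 1.89 ± 0.52 higher and did not pass (adjusted p = 0.131). The call of Bgn ended when some single arrays were left out: without the expanded array of day 0, 7 or 14 the adjusted p was 0.128, 0.0680 or 0.138, without the non-expanded array of day 0 or 21 it was 0.0617 or 0.0741, and without anagen 0.0699. It also ended with no filter on low values (adjusted p = 0.0543). With values above 16 set to 16 the expanded-over-without-surgery difference was 2.11 (adjusted p = 0.0252), and the difference between the arms shrank to 0.46.

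Decorin, encoded by Dcn, is the class I member that decorates type I collagen fibrils and binds TGF-beta. The same order of days gave 19.40, 18.94, 19.33 and 19.43 in expanded skin, and 19.38, 19.52, 19.29 and 19.47 in non-expanded skin. Telogen read 19.19 and anagen 17.99, so anagen alone lay below all others. For Dcn the arms differed by -0.14 ± 0.23 (SE, adjusted p = 0.88), with a 95% confidence interval of -0.68 to 0.40. Non-expanded skin was 0.82 ± 0.34 above skin without surgery and expanded skin 0.69 ± 0.34, neither passing (adjusted p = 0.281 and 0.352). Set against telogen alone the arm means were 0.23 and 0.09 higher, and against anagen alone 1.42 and 1.28 higher, for non-expanded and expanded skin respectively.

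Asporin, encoded by Aspn, is a class I member with an aspartate-rich start that carries no sulfated chain and competes with decorin for collagen. Its levels were 16.38, 15.62, 16.09 and 16.54 in expanded skin. They were 16.15, 16.38, 16.28 and 15.76 in non-expanded skin, 16.30 in telogen and 12.36 in anagen. The arms overlapped fully, telogen lay among them, and anagen lay 3.26 below the lowest expander array. Between the arms Aspn differed by 0.01 ± 0.30 (adjusted p = 0.994, 95% confidence interval -0.70 to 0.73), a difference whose sign turned with median centring, to -0.01, and with values capped at 16, to -0.03.

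Fibromodulin, encoded by Fmod, is a class II member with keratan sulfate that binds fibrils of type I collagen and guides their cross-linking. The expanded arrays gave 9.95, 9.47, 10.07 and 10.20. Its levels were 6.98, 9.32, 8.20 and 6.52 in non-expanded skin, 7.51 in telogen and 5.85 in anagen, the last close to the background median of that array, 5.32. Every expanded array lay above every non-expanded array and above both arrays without surgery. The 4 expanded arrays averaged 9.92 ± 0.32 (SD) and the 4 non-expanded arrays 7.75 ± 1.26. The difference between the arms was 2.17 ± 0.56 (SE, 95% confidence interval 0.83 to 3.51), 4.50-fold, with expanded skin higher on 4 of 4 days. This did not pass over all genes (limma adjusted p = 0.371, unadjusted p = 0.0068), and an exact permutation test over 4 pairs cannot go below 0.125. At day 7 the arms differed by 0.15 only, against 2.97, 1.87 and 3.68 at days 0, 14 and 21. Over skin without surgery, expanded skin was 3.25 ± 0.72 higher (adjusted p = 0.0699) and non-expanded skin 1.08 ± 0.72 (adjusted p = 0.507). The non-expanded difference was 0.25 against telogen alone and 1.91 against anagen alone, and the expanded difference 2.42 and 4.08.

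Prolargin, encoded by Prelp, is a class II member whose basic start binds heparan sulfate and which links basement membranes to collagen. Levels were 13.21, 13.34, 12.77 and 13.34 in expanded skin, and 12.11, 14.04, 12.04 and 13.17 in non-expanded skin. Telogen read 10.92 and anagen 10.61. All 8 expander arrays lay above both, while the arms overlapped. Expanded skin was 2.40 ± 0.52 above skin without surgery (limma adjusted p = 0.0657), 5.29-fold, and non-expanded skin 2.08 ± 0.52 (adjusted p = 0.11), 4.21-fold, and neither passed. Without the non-expanded array of day 7, the expanded difference of Prelp passed (adjusted p = 0.0307), as did that of Fmod (adjusted p = 0.0423). Between the arms Prelp differed by 0.33 ± 0.33 (adjusted p = 0.794).

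Lumican, encoded by Lum, is the class II keratan sulfate proteoglycan that keeps collagen fibrils of cornea and skin evenly spaced. Expanded skin gave 17.31, 17.30, 17.05 and 17.10. Its levels were 17.63, 17.33, 17.47 and 16.94 in non-expanded skin, 17.30 in telogen and 13.63 in anagen. The 8 expander arrays spanned 0.69, and anagen lay 3.31 below the lowest of them. The arms differed by -0.15 ± 0.22 (adjusted p = 0.861), with a 95% confidence interval of -0.68 to 0.38. Non-expanded skin was 1.88 ± 0.75 above skin without surgery (adjusted p = 0.272) and expanded skin 1.72 ± 0.75 (adjusted p = 0.292), but against telogen alone the differences were 0.04 and -0.11.

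Osteomodulin, encoded by Omd, is the class II member best known from bone and tooth matrix. In expanded skin it read 11.95, 11.22, 11.02 and 11.96, and in non-expanded skin 11.17, 10.00, 13.08 and 10.32. Telogen, at 13.16, lay above all 8 expander arrays, and anagen, at 8.61, lay below all of them. The arms differed by 0.39 ± 0.60 (adjusted p = 0.873). Its direction against skin without surgery depended on which array was used, at -2.02 for non-expanded skin minus telogen and 2.53 for non-expanded skin minus anagen.

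Osteoglycin or mimecan, encoded by Ogn, is the class III member and a collagen-fibril regulator. Its expanded arrays gave 17.60, 16.75, 16.07 and 18.51, a span of 2.43, and in non-expanded skin 17.54, 17.32, 18.11 and 17.35. Telogen read 18.23, above 7 of 8 expander arrays, and anagen 15.89, below all of them. The arms differed by -0.35 ± 0.49 (adjusted p = 0.86), and the sign turned without day 14, to 0.22.

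**Figure D1:**
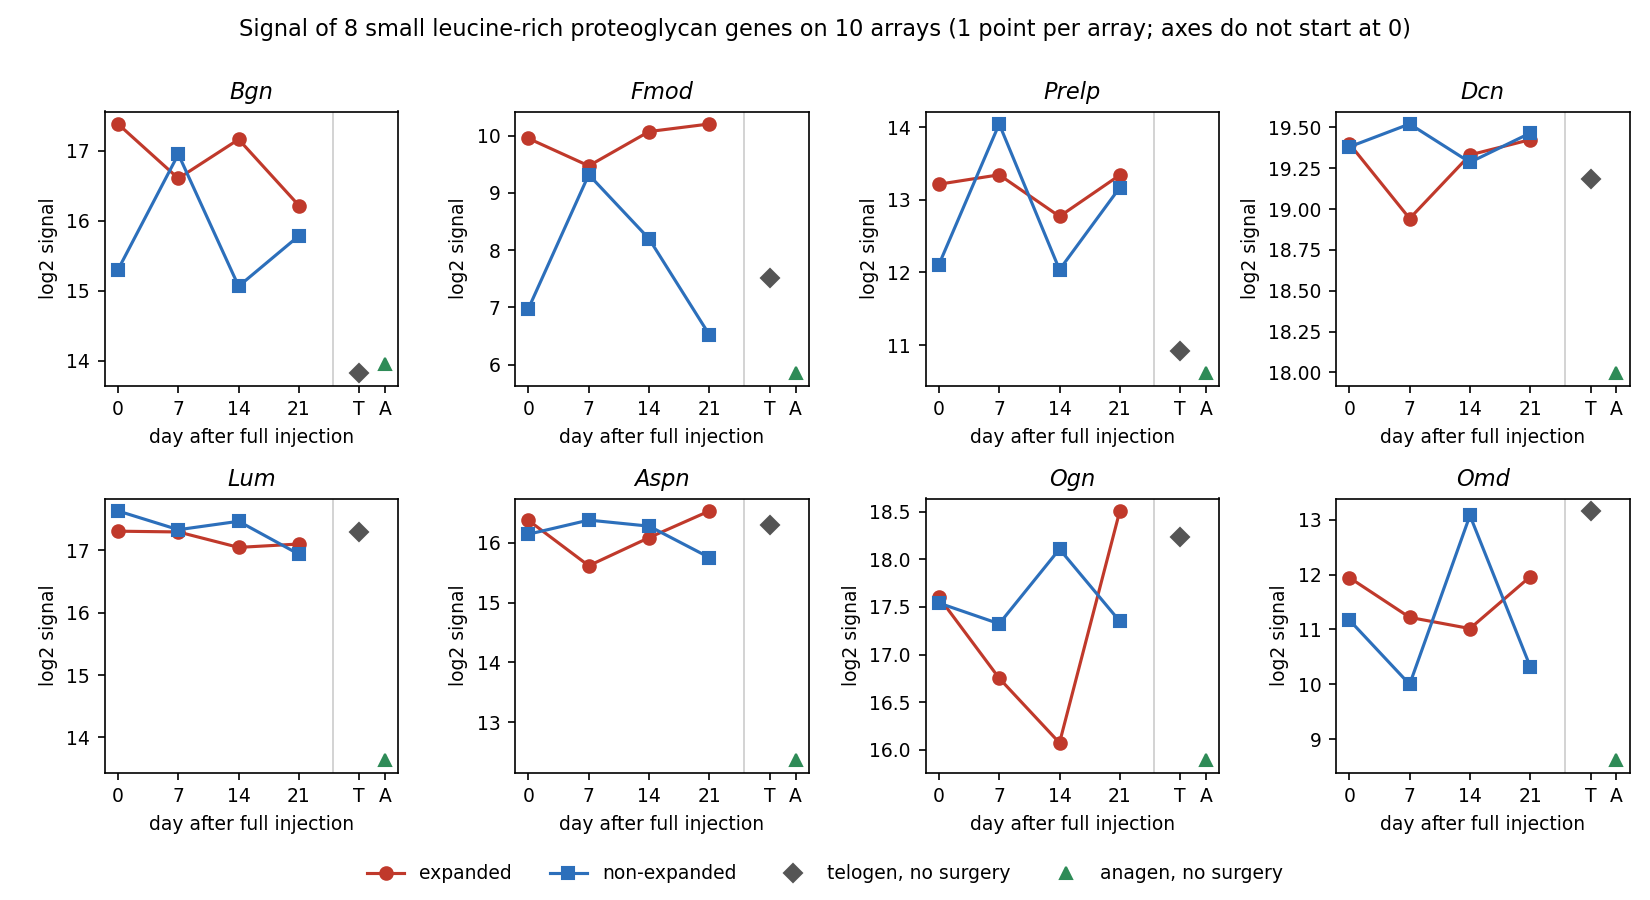
Log2 signal (vertical axes, scaled per gene and not starting at 0) of the 8 genes against the day after full injection, with 1 point per array: expanded skin in red circles, non-expanded skin in blue squares, and telogen (T) and anagen (A) skin without surgery at the right. Lines join arrays of different mice or pools; anagen is the lowest array for 7 genes, Fmod is higher in expanded skin on all 4 days, and Bgn and Prelp are higher on all 8 expander arrays than without surgery.

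Expanded against non-expanded skin addressed what injection added to an implanted expander. Fmod had the largest mean difference of the members, 2.17, and Bgn the next, 1.07, while Dcn, Lum and Aspn differed by at most 0.15 on average. None of the 8 members passed, nor did any of the 13653 genes (percent called 0%, lowest limma adjusted p = 0.221). At an unadjusted p under 0.05, limma called 1202 genes (8.8%) and 1 member, Fmod, on the higher side, where 4.83% of all genes lay. Fmod was also the 1 member whose arms did not overlap, beside 2.97% of all genes on the higher side, and the 1 that was higher on all 4 days, beside 9.18%. Of the 8 members, 5 were higher, with a median difference of 0.17 against 0.02 over all genes tested. Leaving out 1 day gave 1.67 (without day 21) to 2.84 (without day 7, adjusted p = 0.17) for Fmod. Bgn came to 0.72 when day 14 was left out and to 0.73 when day 0 was (adjusted p = 0.991 and 0.73), and reached 1.54 without day 7 (adjusted p = 0.272). Prelp ran from 0.068 to 0.67. Without day as a block no adjusted call changed, but the unadjusted p of Bgn moved from 0.0565 to 0.0332 (limma). The non-expanded array of day 7 had the highest mean of the fibroblast markers (12.75, other expander arrays 11.12 to 12.20) and of the collagens that the family binds (11.97, others 10.07 to 11.25); the part of these in the day 7 values was not tested.

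Single days gave differences of at least 2-fold in several members, with 1 array a side and no test. At day 0, 3 members were at least 2-fold higher in expanded skin, Bgn by 2.08, Fmod by 2.97 and Prelp by 1.11, where 9.49% of all genes were. At day 7 Omd, higher by 1.22, was the 1 such member, against 8.45%. At day 14, Bgn and Fmod were at least 2-fold higher (11.4% of genes), while Ogn differed by -2.03 and Omd by -2.06 (8.85% of genes were at least 2-fold lower). At day 21, Fmod, Ogn and Omd were higher by 3.68, 1.16 and 1.64 (6.69%). With values above 16 set to 16, Bgn was 0.70 higher at day 0 and 0.93 at day 14, under 2-fold on both days, and Ogn differed by 0 at days 14 and 21. The median of the 8 members was 0.50, -0.46, -0.07 and 0.61 at days 0, 7, 14 and 21, and that of the collagens was 1.22, -1.48, 0.43 and 0.66. Both medians were thus on the lower side at day 7 and on the higher side at days 0 and 21.

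**Figure D2:**
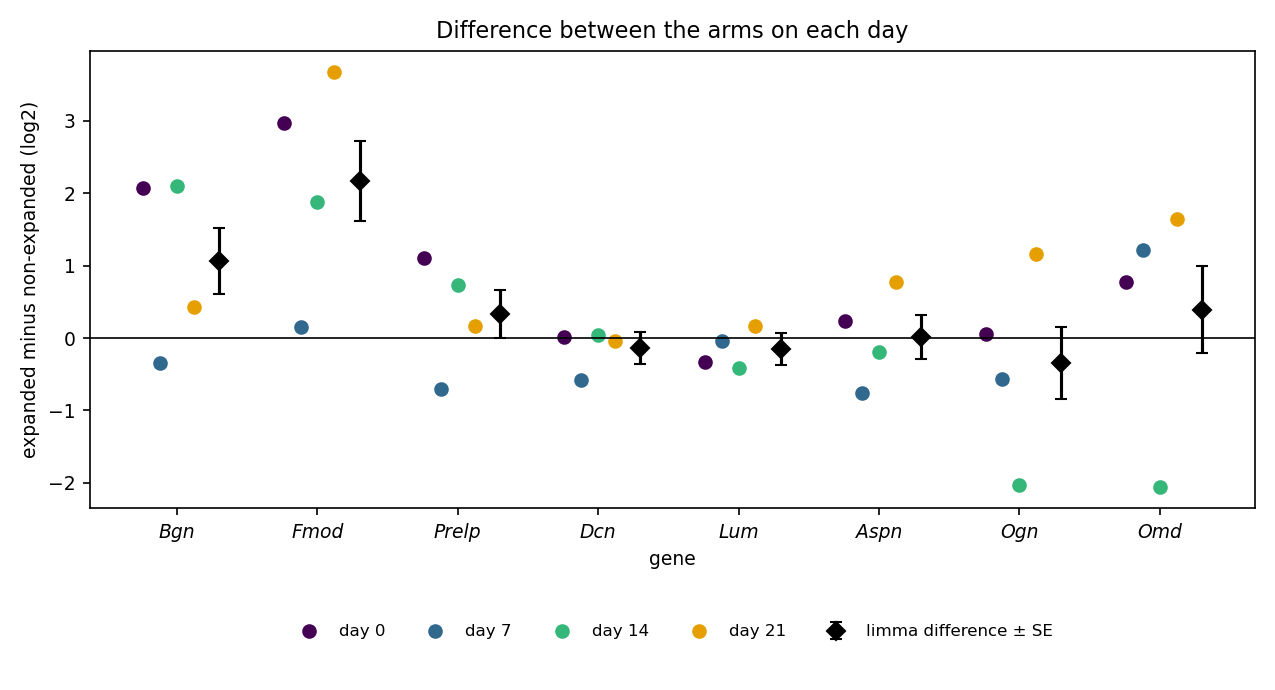
Expanded minus non-expanded log2 signal (vertical axis) for each gene, with 1 coloured point per day and the limma difference with its standard error as a black diamond. Fmod lies above 0 on all 4 days, Dcn, Lum and Aspn stay within 0.78 of 0, and Ogn and Omd lie near -2 at day 14 and above 1 at day 21.

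Straight lines over the days in each arm found no member and no gene past the threshold (limma, percent called 0% in each arm and for their difference). At an unadjusted p under 0.05, limma called 339 genes in expanded skin (2.48%), 495 in non-expanded skin (3.63%) and 166 for the difference (1.22%), and none of the 8 members in any of these. Over 21 days Bgn changed by -0.88 ± 0.86 (SE) in expanded skin and by -0.13 ± 0.86 in non-expanded skin. Fmod changed by 0.41 ± 1.12 and -0.75 ± 1.12, and Lum by -0.26 ± 0.40 and -0.58 ± 0.40. In expanded skin the 95% confidence interval was -2.20 to 3.01 for Fmod, so a trend of several-fold either way was not detectable for that gene. It was narrower for Dcn (-0.84 to 1.12) and Lum (-1.18 to 0.67), on values above 16.

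Skin over an expander was next set against skin without surgery, to see what implantation with or without injection added. Bgn and Prelp were higher against telogen and against anagen alike. For Dcn, Lum and Aspn the arm means lay within 0.23 of telogen and well above anagen, and for Ogn and Omd the arm means lay between the 2 arrays. In non-expanded skin no member passed, as no gene did (limma, percent called 0%, lowest adjusted p = 0.0646, with 2144 genes or 15.7% at an unadjusted p under 0.05), and 4 members, Dcn, Bgn, Lum and Prelp, were higher at an unadjusted p under 0.05, where 9.42% of genes were. In expanded skin, Bgn was 1 of 65 genes past the threshold (0.476% of all genes; 0.447% on the higher side; 16.4% at an unadjusted p under 0.05), and 5 members, Bgn, Lum, Fmod, Prelp and Aspn, were higher at an unadjusted p under 0.05, against 10.7%. The groups did not overlap for Dcn, Bgn and Prelp in non-expanded skin (11.5% of genes on the higher side) and for Bgn, Fmod and Prelp in expanded skin (14% of genes). All 10 arrays of Dcn lay above 16, so its unadjusted call and its separation in non-expanded skin rest wholly on values above 16. The 2 comparisons share their arrays without surgery. All 8 members had a positive difference in each, with medians of 1.44 and 1.77 against 0.01 over all genes. These medians depended on the anagen array: against telogen alone they were 0.13 in non-expanded skin (5 of 8 higher) and -0.013 in expanded skin (4 of 8 higher), and against anagen alone 2.07 and 2.90.

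The direction of 4 members against skin without surgery turned when the anagen array was left out and telogen alone remained, a fit in which the lone array was assumed to vary like the others. Without anagen, the non-expanded difference was -0.65 for Ogn, -2.02 for Omd and -0.16 for Aspn, and the expanded difference -0.999 for Ogn, -1.62 for Omd, -0.14 for Aspn and -0.11 for Lum. Bgn stayed 1.95 and 3.02 higher in non-expanded and expanded skin, and Prelp 1.92 and 2.25 higher, though none passed (lowest adjusted p = 0.0699, Bgn in expanded skin). Without telogen, so against anagen alone, all 8 members were higher in both arms. The non-expanded difference was then 1.42 for Dcn, 3.71 for Lum, 2.23 for Prelp and 3.78 for Aspn. The expanded difference was 1.28, 3.56, 2.56 and 3.79 for the same genes, 2.88 for Bgn and 4.08 for Fmod.

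**Figure D3:**
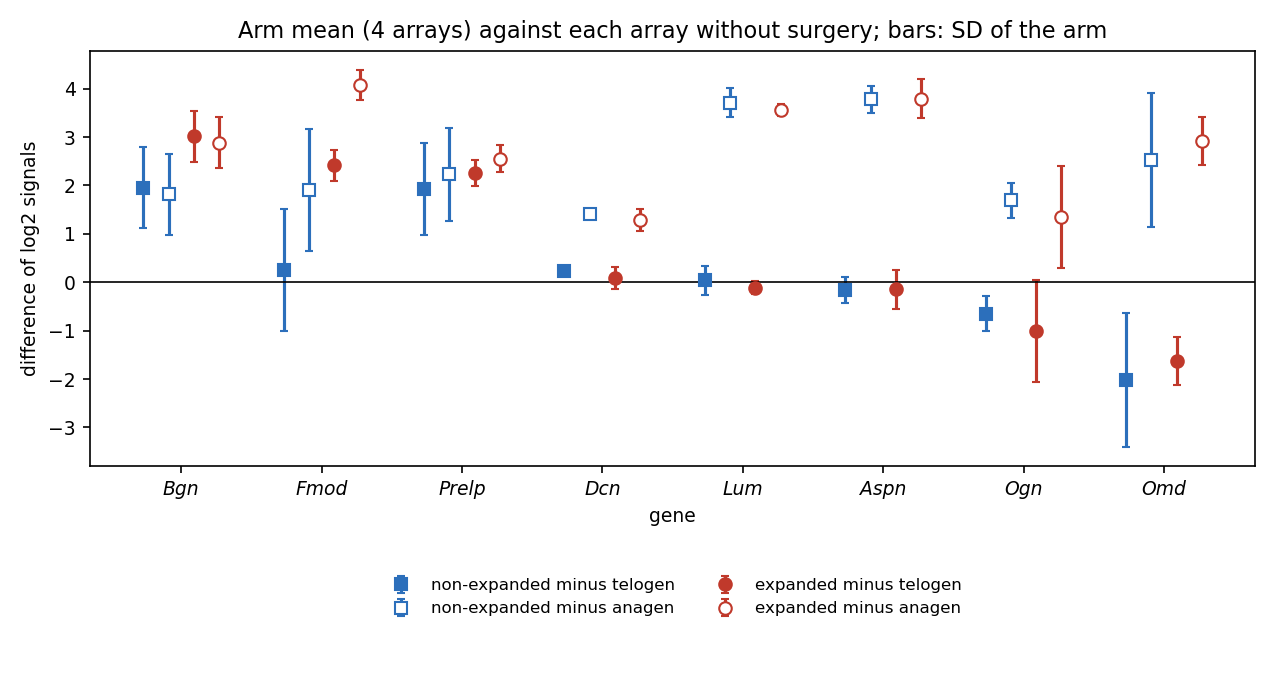
Mean log2 signal of each arm (4 arrays) minus that of telogen (filled) or anagen (open) skin without surgery, for non-expanded (blue squares) and expanded skin (red circles), with bars for the SD of the arm. Bgn and Prelp lie above 0 against both arrays, Dcn, Lum and Aspn lie near 0 against telogen and above 1 against anagen, and Omd lies below 0 against telogen and above 2 against anagen.

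Anagen against telogen skin, with 1 array a side and no test, showed lower levels of most of the family in the growing stage. Anagen minus telogen was -4.54 for Omd (23.3-fold lower), -3.94 for Aspn (15.3-fold) and -3.67 for Lum (12.8-fold). It was -2.34 for Ogn, -1.66 for Fmod and -1.19 for Dcn. These 6 members were at least 2-fold lower, where 20.4% of all genes were, and none was 2-fold higher, where 23.5% were. With values above 16 set to 16, 4 members remained at least 2-fold lower (20.1% of genes): Lum differed by -2.37 (5.17-fold lower), Aspn by -3.64 and Ogn by -0.11, and Dcn, above 16 on both arrays, by 0. With quantile normalization 5 members were at least 2-fold lower (20.3% of genes), and Dcn differed by -0.96. Prelp differed by -0.30 and Bgn by 0.13. Over all genes tested 0.41% were as low as Omd, 0.828% as low as Aspn and 1.16% as low as Lum. In whole skin, fewer cells of a type and less RNA per cell cannot be told apart. The fibroblast markers moved in the same direction: 11 of 15 were lower, with a median of -1.14 and a list mean of 9.82 in anagen against 10.82 in telogen. All 16 skeletal muscle markers were lower (median -3.86), and 8 of the 14 collagens were lower, with a median of -0.44. All 12 hair shaft and root sheath genes were higher (median 10.26). The part of these lists in the members' values was not tested.

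All 4 genes of the cluster on chromosome 13 were lower in anagen than in telogen on the deposited scale. Its non-member Ecm2 read 14.77 in telogen and 10.79 in anagen, a difference of -3.98, beside -3.94, -4.54 and -2.34 for Aspn, Omd and Ogn. Like Omd, Ecm2 lay below telogen on all 8 expander arrays (10.74 to 13.69), and like Ogn and Omd it had its lowest expanded array at day 14. On chromosome 10, anagen minus telogen was -1.19 for Dcn and -3.67 for Lum. Their neighbour Kera differed by -1.60, from 7.31 in telogen to 5.70 in anagen. That anagen value lay close to the background median of the array, 5.32. Epyc read 4.28 and 4.597, under the background median. On chromosome 1, Fmod differed between the arms by 2.17 and Prelp by 0.33, and Optc, between 3.29 and 4.43, stayed under background on all 10 arrays.

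Members were compared with one another over the 8 expander arrays, which share days and arms, so the correlations are descriptions without a test. Bgn and Fmod gave a Pearson r of 0.75 (Spearman rho 0.62), Bgn and Prelp 0.68 (0.55), Aspn and Dcn 0.61 (0.52) and Ogn and Aspn 0.59 (0.64). Ogn and Omd gave 0.52 (0.71). Bgn and Ogn ran the other way, with -0.49 (-0.43), as did Prelp and Omd, with -0.59 (-0.33). Over all 10 arrays Lum and Aspn reached 0.97 and Lum and Dcn 0.91, but over the 8 expander arrays they gave 0.22 and -0.16, so the high values were not seen without the 2 arrays of mice without surgery.

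Genes most like each member over the 10 arrays were ranked by Pearson r. Picking the highest r among many genes on 10 arrays raises these values by itself. The rho and the r over fewer arrays use the same arrays, so they add no separate test. For Bgn the genes were Olfml3 (r = 0.97), Podn (0.96) and Srpx2 (0.96). Podn, which encodes the family member podocan, gave a Spearman rho of 0.96 and an r of 0.94 over the 8 expander arrays, and it read 8.31 in telogen and 8.42 in anagen against 9.14 to 12.46 over an expander. Smoc2, which encodes a matrix calcium-binding protein, was most like Fmod (r = 0.94, rho 0.98, 0.92 over the expander arrays), followed by Dkk3 (0.93) and Scarf2 (0.92). Prelp was most like Qdpr, Lsp1 and C1ra (0.96 each). For Ogn the genes were Ezh1, Whamm and Phip (0.96, 0.95 and 0.94), and for Omd Arhgef5, Zranb1 and Clk1 (0.99, 0.96 and 0.95). Lum was most like Pip4k2a (0.98), Ctsk and Hpgds (0.97 each), Aspn like Zfp521 (0.98), Serpinf1 and Ctsk (0.97 each), and Dcn like Rap1a, Arhgef6 (0.98 each) and Syne1 (0.97). For Lum and Ctsk, the r fell to 0.04 without the 2 arrays farthest from the median of Lum, and for Aspn and Ctsk to 0.15. The same step on each member gave 0.72 for Lum and Pip4k2a and 0.62 for Lum and Hpgds. For Aspn it gave 0.39 with Zfp521 and 0.54 with Serpinf1. For Dcn it gave 0.71 with Rap1a, 0.83 with Arhgef6 and 0.59 with Syne1.

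**Figure D4:**
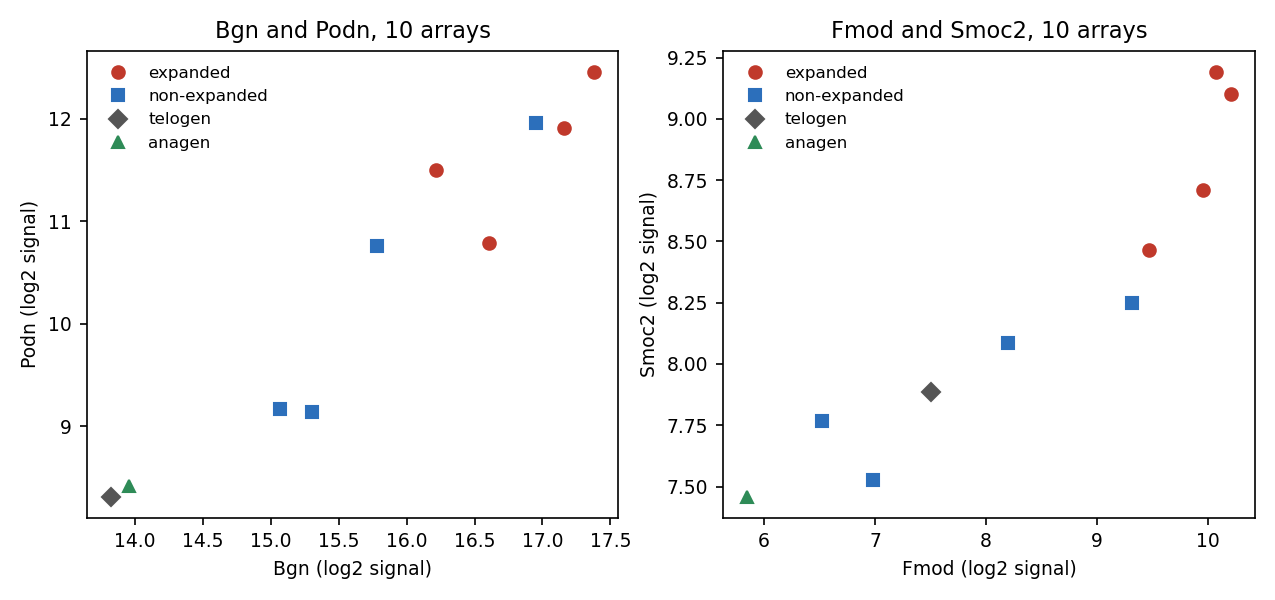
Log2 signals of Podn against Bgn (left) and of Smoc2 against Fmod (right), with 1 point per array for expanded (red circles), non-expanded (blue squares), telogen (grey diamond) and anagen skin (green triangle). Podn and Bgn give r = 0.96 over the 10 arrays with both arrays without surgery at the low end, and the 4 expanded arrays hold the highest Smoc2 and Fmod signals.

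Enzymes that build the sugar chains and the partners of the family were described by lists. No gene of any of these lists passed between the arms. Of 19 tested genes of chondroitin and dermatan sulfate synthesis, 16 were higher in expanded skin, with a median of 0.18 against 0.02 over all genes. Csgalnact1, which starts chondroitin chains, differed by 0.96 ± 0.32 (SE), and B3galt6 and Xylt1, which build the linker to the core protein, by 0.51 ± 0.22 and 0.54 ± 0.31. All 6 tested genes of keratan sulfate synthesis were higher, with a median of 0.21, with the smallest p for B3gnt2 at 0.39 ± 0.25. Of 14 collagens, 10 were higher, with a median of 0.17; Col11a1 differed by 0.97 ± 0.21 and Col6a6 by -0.78 ± 0.30. Among 10 growth factors, 7 were higher, with a median of 0.64, and Ccn2, Ccn4 and Tgfb3 differed by 2.84 ± 0.49, 1.37 ± 0.33 and 1.10 ± 0.29. Of 11 proteases that cut the family, 9 were higher (median 0.26), among them Mmp12 at 1.79 ± 0.28 and Adamts1 at 1.83 ± 0.32. Receptors were higher in 7 of 14 (median -0.03). Of the other 6 small leucine-rich proteoglycans tested, 3 were higher (median -0.16), with Podn at 1.40 ± 0.72 and Ecm2 at -1.14 ± 0.55. Large and basement membrane proteoglycans were higher in 12 of 15 (median 0.24), and Sdc1, which encodes the epithelial syndecan, differed by 1.77 ± 0.23 (adjusted p = 0.221, the lowest of all genes).

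In expanded skin against skin without surgery, some partners passed beside Bgn. These were Col6a2 (a chain of the type VI collagen that biglycan binds) at 2.57 ± 0.45 (SE, limma adjusted p = 0.0454), Igf1 at 2.57 ± 0.45 (0.0444), Ccn2 at 5.17 ± 0.66 (0.0162), Cd14, a co-receptor of Toll-like receptors, at 3.55 ± 0.62 (0.0444), and Adamts1, a protease, at 2.89 ± 0.48 (0.0393). When each of the 10 arrays was left out in turn, a check added after the data were seen, Ccn2 passed in 8 fits, Adamts1 in 5, Bgn and Cd14 in 4 each, and Col6a2 and Igf1 in 2 each. The highest adjusted p was 0.143 for Col6a2, 0.12 for Igf1, 0.0654 for Ccn2 and 0.114 for Adamts1 (each without expanded day 14), and 0.128 for Cd14 (without expanded day 0). Higher levels were found for 13 of 14 collagens (median 1.01), 11 of 11 proteases (2.89), 11 of 14 receptors (0.65) and 14 of 19 chondroitin and dermatan sulfate genes (0.57), against 0.01 over all genes. In non-expanded skin the same lists had medians of 0.95, 2.65, 0.66 and 0.31 with no gene past the threshold.

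Marker lists of other cell types moved in these comparisons too. Macrophage markers averaged 11.34 to 13.92 on the non-expanded and 11.40 to 13.19 on the expanded arrays, against 10.07 in telogen and 8.92 in anagen, and all 9 were higher in either arm than without surgery. Fibroblast markers averaged 11.12 to 12.75 and 11.47 to 12.20, against 10.82 and 9.82, with 14 of 15 higher in non-expanded and 13 of 15 higher in expanded skin (medians 1.34 and 1.38). Mfap5 of this list passed in expanded skin, by 4.31 ± 0.69 (SE, limma adjusted p = 0.0359), and in 4 of the 10 fits that left out an array. All 15 immediate early genes and all 12 hair shaft and root sheath genes were higher in expanded than in non-expanded skin, with medians of 1.52 and 1.47. Without day 7, all 15 immediate early genes but only 3 of 12 hair genes were higher, with medians of 1.67 and -0.35. The mean difference of the hair genes was 0.16, 8.06, -2.68 and 1.57 at days 0, 7, 14 and 21. Expanded skin minus skin without surgery was positive for 13 of the 15 immediate early genes (limma, median 3.00), and 2 passed, Dusp1 and Fosb. Leaving out 1 array at a time gave 5.37 to 6.55 for Dusp1 and 6.53 to 8.59 for Fosb. Each passed in 6 of these 10 fits. For non-expanded skin, 13 of the 15 were positive too, with a median of 1.36 and no gene past the threshold. Between the arms, the fibroblast list had 8 of 15 higher and a median of 0.01, and skeletal muscle markers 15 of 16 lower with a median of -1.85. Of 11 tendon and fascia markers, 6 were higher between the arms (median 0.05), with Cilp at 2.58 ± 0.35, Thbs4 at 2.51 ± 0.57, Comp at 1.11 ± 0.22 and Kera at -0.45 ± 0.35. Cilp, a matrix protein of cartilage and fascia, was also 5.39 ± 0.54 higher in expanded skin than without surgery (limma adjusted p = 0.00635), past the threshold in all 10 such fits, and Kera read 4.46 to 7.31 on the 10 arrays. The genes of this paragraph were named after their values were seen. The part of these cell types in the levels of Bgn, Fmod and Prelp was not tested.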

How the data were processed

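Whole back skin was profiled on 10 Affymetrix arrays, 4 expanded, 4 non-expanded, 1 telogen and 1 anagen. Per the labels, RNA was labelled with biotin and hybridised; the values that the authors deposited, 1 per probe set and array, were taken to be log2 signals. The log base, background correction, summarisation and normalization are not given in the sources used here, so the base was inferred from the range of the values, 1.87 to 19.88. The genome build mm10 is named in the submitters' processing notes. Gene symbols came from the platform annotation (19572 of 28846 probe sets), with the highest-mean probe set used for the 55 genes that have several. Of these genes, 13653 had a mean level at or above the 30th percentile (4.86) and were tested.

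limma 3.58.1 was used in R 4.3.3 for all comparisons, two-sided, with Benjamini-Hochberg adjustment at 0.05. The arms were compared with day as a block (3 residual degrees of freedom), lines over days were fitted per arm (4), and comparisons with skin without surgery used all 10 arrays in 3 groups (7). The time point numbers pair the arms by day, per the labels; deviations of same-day arrays correlated at -0.13, -0.17, -0.10 and 0.36. The number of arrays limits the precision. The code was tested on simulated data. The members, the gene lists and the rules were chosen with earlier results of these data known. Every member is reported; from each pathway list the genes past the threshold or with the smallest p are named, and for each member the 3 genes of highest Pearson r over 10 arrays. Alternatives were the level filter, normalization, probe set choice, a cap at 16, the variance prior, the block, and leaving out arrays. Fits of the partner genes without single arrays, lists without day 7, and medians and counts under a single reference array or the cap were added after the data were seen.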

Additional observations from a re-analysis of the deposited data

Results flagged for a closer look

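Ogn and Omd differed between the arms in opposite directions on different days. Expanded minus non-expanded skin was -2.03 at day 14 and 1.16 at day 21 for Ogn. For Omd it was 1.22 at day 7, -2.06 at day 14 and 1.64 at day 21. Each value has 1 array a side, so the difference between the days was not tested. All 4 Ogn values behind its differences lie above 16, and with values above 16 set to 16 both differences are 0; those of Omd do not change. On the non-expanded array of day 14, hair shaft and root sheath genes averaged 8.26, above the other non-expanded arrays (4.66 to 4.88), and the part of this in the values was not tested. None of the 16 sets of 4 arrays (8 genes in each arm) held an array farther from the rest than Dixon's 95% critical value for 4 samples, 0.829.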

How the results depend on the processing

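The arms, the lines over days and the comparisons with mice without surgery were refitted under each alternative. Single-array differences were recomputed under some. Of these values and the counts of genes passing, 879 were labelled the same, 11 moved past the threshold and 7 fell short of it. A further 32 moved and 49 turned sign, and the cause was not tested. Values that the cap at 16 set to exactly 0 were left out of these counts. Among those left out were Ogn between the arms at days 14 and 21 and anagen minus telogen of Dcn. Counts and single-array differences under 2-fold were labelled by the size of their shift. Small differences that turned sign can thus lie among the 879, such as Dcn between the arms at day 0 (-0.063 to 0.020). With no filter on low values, 33 genes and 0 members passed in expanded skin over skin without surgery; with values above 16 set to 16, 27 genes passed there and 1 in non-expanded skin. Without the replicate block of day, 2 genes and no member passed between the arms, and the block changed no member's call at the adjusted threshold. Between the arms, Aspn turned to -0.0070 with median centring and to -0.034 with values capped at 16. The change over days in non-expanded skin turned to -0.18 (quantile normalization) and -0.015 (median centring) for Dcn, and to 0.15 with the cap for Bgn. The cap also moved anagen minus telogen of Lum to -2.37 and of Ogn to -0.11, and Bgn between the arms to 0.70 at day 0 and 0.93 at day 14.

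Leaving out 1 day or array gave these ranges. Between the arms, 0 to 1 genes passed; differences ran from -0.20 to 0.0082 for Dcn, 0.72 to 1.54 for Bgn, 1.67 to 2.84 for Fmod, 0.068 to 0.67 for Prelp, -0.85 to 0.22 for Ogn, -0.022 to 1.21 for Omd and -0.24 to 0.27 for Aspn. In expanded skin over skin without surgery, 5 (without expanded day 14) to 1850 genes (without telogen) and 0 to 6 members passed; ranges were -0.11 to 3.56 for Lum, -0.999 to 1.34 for Ogn, -1.62 to 2.92 for Omd and -0.14 to 3.79 for Aspn. In non-expanded skin, 0 to 2645 genes and 0 to 4 members passed (the highest without telogen); ranges were 0.25 to 1.91 for Fmod, -0.65 to 1.69 for Ogn, -2.02 to 2.53 for Omd and -0.16 to 3.78 for Aspn. Changes over days in expanded skin ran from -0.10 to 0.72 for Dcn, -2.29 to 2.63 for Ogn, -1.39 to 1.11 for Omd, -0.67 to 0.11 for Prelp and -0.43 to 1.37 for Aspn. In non-expanded skin they ran from -0.14 to 0.061 for Dcn, -1.75 to 0.36 for Bgn, -4.19 to 1.83 for Fmod, -0.16 to 0.85 for Ogn, -0.66 to 2.86 for Omd, -1.31 to 0.89 for Prelp and -0.94 to 0.20 for Aspn. The difference of the changes ran from -0.046 to 0.81 for Dcn, -1.41 to 1.17 for Bgn, -0.14 to 0.46 for Lum, -1.65 to 5.29 for Fmod, -3.14 to 2.60 for Ogn, -4.25 to 0.83 for Omd, -0.88 to 1.31 for Prelp and -0.63 to 2.32 for Aspn. With 4 arrays an arm, 1 array each of telogen and anagen, and several members near the top of the scale, the number of arrays limits the precision.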
